A study of Mus musculus with 6 samples.

Results

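The cytokine receptors described here are the chains that bind or signal for IL-6, IL-12, IL-23, IL-27 and IL-10. They are Il6st (gp130), Il6ra, Il27ra, Il12rb1, Il12rb2, Il23r, Il10ra and Il10rb. The 8 genes were taken by symbol from a matrix of 24421 genes, and 7 of them passed the filter for expression, as did 11658 genes in all. The libraries came from splenic CD4+YFP+ regulatory T (Treg) cells of C57BL/6 female mice aged 8 to 11 weeks, and RNA was extracted from the sorted cells without further treatment. In the WT group (Foxp3Cre, n = 3) Cre and YFP were expressed from the Foxp3 gene and miR-142 was intact. In the KO group (Foxp3Cre miR-142 fl/fl, n = 3) the same Cre deleted a floxed miR-142, so that cells other than Treg cells of these mice kept the microRNA. The study's methods give 3 mice per group. The paper reports fatal systemic autoimmunity in mice of the KO genotype. It raises the caveat that their inflammation could conceivably alter Treg gene expression. The parts of that inflammation and of the lost microRNA in the differences below were not tested. The libraries were numbered 1 to 3 in each group, and values of single libraries are given below in that order.

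These receptors belong to the class I and class II cytokine receptor families and signal through Janus kinases (JAKs) and STAT transcription factors. Gp130 is the shared signalling chain of the IL-6 family, and it pairs with the IL-6 receptor α chain or with the IL-27 receptor. IL-12Rβ1 is shared between the IL-12 receptor, with IL-12Rβ2, and the IL-23 receptor, with IL-23R. IL-10 binds IL-10Rα, and IL-10Rβ completes that receptor and several others. In T cells IL-6 acts mainly through STAT3, IL-12 through STAT4, and IL-27 and IL-10 in part or mainly through STAT3. IL-6 is known for opposing Treg cell differentiation, IL-12 for promoting T helper 1 features, and IL-10 sensing for sustaining the suppressive program of Treg cells.

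MicroRNA-142 gives a mature strand from each arm of its hairpin, and both are shown because their seeds were searched for in the receptor transcripts. The sequences are those of RefSeq (GRCm38.p6, chromosome 11, plus strand, 87756867 to 87756887 for the 5p strand and 87756903 to 87756925 for the 3p strand), with the seed, bases 2 to 8, in capitals.
miR-142a-3p: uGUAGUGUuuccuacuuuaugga
miR-142a-5p: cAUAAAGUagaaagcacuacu

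The longest annotated 3′ UTR of each receptor gene was searched for 7-base matches to these seeds. The motifs were ACACTAC and CACTACA for miR-142-3p, AACACTA and ACACTAA for a 3p seed that lies 1 base further (bases 3 to 9), and ACTTTAT and CTTTATA for miR-142-5p. Matches to the 3p seeds can overlap each other. A match to either 3p seed was present in 5 of the 8 receptor genes, Il6st, Il6ra, Il12rb2, Il10ra and Il10rb, beside 22.7% of the 10786 tested genes with an annotated 3′ UTR. A miR-142-5p match was present only in Il6st among the 8, beside 23.5% of tested genes. Il27ra, Il12rb1 and Il23r held no match, and theirs were among the shorter 3′ UTRs of the family, at 737, 666 and 433 bases. The 3′ UTRs of Il6st (5641 bases) and Il6ra (7102 bases) were longer than the median of 1186 bases over tested genes, and a long 3′ UTR offers more places for a match.

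The matches are printed below with up to 11 bases on each side, in the sense of the transcript and with the match in capitals. The Il6st match is shown because it was the only one in the family in which both motifs of the same seed joined, to 8 bases. For the other genes, each is the 3p match with the lowest position in that 3′ UTR.
Il6st, chr13:112506263-112506270, plus strand: gaccagaattcACACTACAaggctggcacc
Il6ra, chr3:89870219-89870225, minus strand: ccgctcactgcACACTACtgtatgaaccc
Il12rb2, chr6:67291637-67291643, minus strand: tcctctccattAACACTActtttctgttt
Il10ra, chr9:45254785-45254791, minus strand: tctgtgttagtACACTACcctttaggtgg
Il10rb, chr16:91425589-91425595, plus strand: gggggcatggaAACACTAtgaaattataa

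All of these lie in the last exon of the transcript with the longest 3′ UTR (GENCODE vM21, GRCm38, the build that mm10 names). In Il12rb2 the match to the second 3p seed overlaps one to the first, starting 1 base further. Il6st held 2 other 3p matches, at 163 and 5443 bases after the stop codon, and 3 miR-142-5p matches, at 177, 848 and 5401 bases. Il6ra held another 3p match at 3946 bases.

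**Figure D1:**
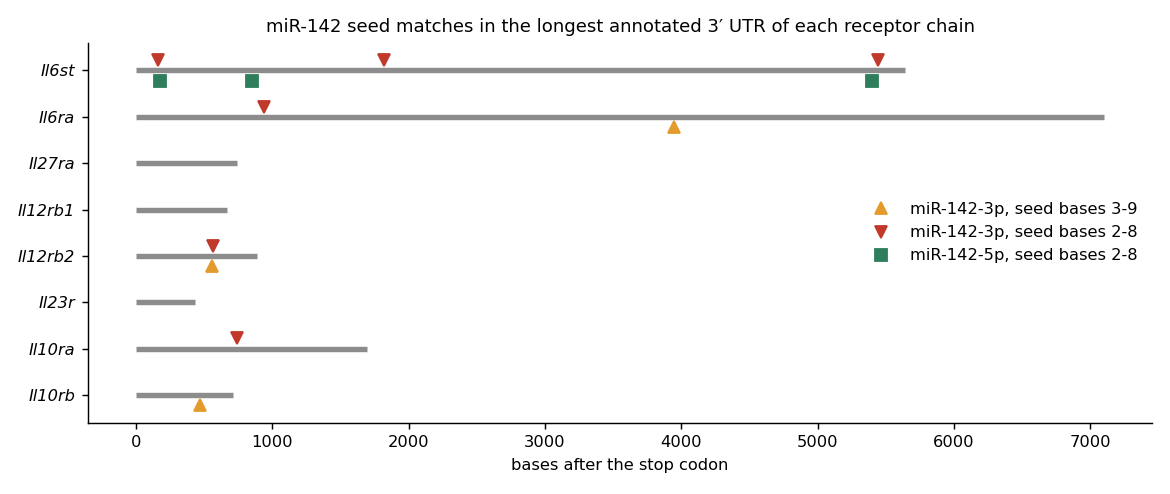
Positions of the miR-142 seed matches (markers) along the longest annotated 3′ UTR (grey line) of each of the 8 receptor genes, in bases after the stop codon. Il6st carries 3 matches to the 3p seed at bases 2 to 8 and 3 to the 5p seed, while Il27ra, Il12rb1 and Il23r carry none.

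The library totals ranged from 13883069 to 24042994 counts, and a count of 3 corresponded to between 0.123 and 0.227 normalized CPM (the share of a library's counts, TMM-scaled). Mir142b, an annotation antisense to Mir142, had 147, 101 and 105 counts in the WT libraries against 7, 5 and 5 in the KO libraries, while Mir142 itself had 0 counts in every library. All 7 Treg markers, among them Foxp3, Il2ra and Ctla4, exceeded 1 normalized CPM in every WT library. Their sum lay between 4816 and 5549 CPM in WT and between 6761 and 7688 CPM in KO. Within this sum Il2ra had a mean of 756 CPM in WT and 2578 CPM in KO. Foxp3 and Tnfrsf18 were also higher in every KO library than in any WT library, and Ctla4 and Ikzf2 overlapped. Cd4 (mean 1021 CPM in WT and 876 CPM in KO) and Cd3e (679 and 593 CPM) were lower in every KO library. KO replicate 1 stood apart by transcripts of other cell types. All 12 monocyte and macrophage markers were highest there, with a sum of 2868 CPM against 82.6 and 19.3 in KO replicates 2 and 3 and 8.19 to 11.9 in WT. The same held for all 8 dendritic cell markers, all 9 B cell markers and 12 of 13 neutrophil markers. Dendritic cell sums in KO replicates 1, 2 and 3 were 160, 5.75 and 6.77 CPM, against 2.99 to 4.04 in WT. The B cell sums were 313, 9.01 and 13.0 CPM against 30.5 to 41.6, and the neutrophil sums 1038, 16.8 and 49.5 CPM against 4.37 to 5.91. KO replicates 2 and 3 thus lay above WT in the monocyte and macrophage, dendritic cell and neutrophil sums. Both lay below WT in the B cell sum. A few genes made up much of the higher sums. In KO replicates 2 and 3, Zbtb46 held 5.07 and 6.02 CPM and Itgax 0.227 and 0. Mpo held 6.21 and 32.2 CPM there, Mmp9 8.93 and 8.01, and S100a8 0 and 0.89. Vcam1 held 35.1 and 11.2 CPM and Csf1r 12.6 and 0.89, against at most 2.28 and 0.83 CPM in WT. The CD8 and NK cell list summed to 20.1 to 24.3 CPM in WT and 44.5 to 76.7 CPM in KO, with Klra4 and Klra8 at 0 in every library. Its members differed in direction. Eomes had 4.35 to 6.69 CPM in WT and 29.8 to 42.0 CPM in KO. Klrb1c was lower in KO, with 2.38 to 3.94 CPM in WT and 0.303 to 1.39 CPM in KO. Cd8b1 overlapped between the groups, and Cd8a had 19.0, 1.97 and 0.684 CPM in KO replicates 1, 2 and 3. The erythroid list summed to at most 13.4 CPM, with Hba-a1, Hba-a2, Hbb-bs and Hbb-bt at 0 in every library. The receptor genes are expressed by several of these cell types, so receptor results are also given without KO replicate 1. Those fits still hold the transcripts of these lists at the levels of KO replicates 2 and 3.

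At an FDR (Benjamini-Hochberg adjusted p of edgeR's quasi-likelihood F test, QLF) under 0.05, 3 of the 7 tested receptor genes rose in KO Treg cells, Il12rb2, Il12rb1 and Il10ra, and 1 fell, Il6ra. Over all tested genes 11.6% were called higher and 7.27% lower. Il6st, Il27ra and Il10rb did not pass the threshold. The KO libraries were all above the WT libraries in 4 of the 7 genes, beside 22.2% of tested genes, and all below them in 1, beside 18.8%. When KO replicate 1 was left out, the calls were Il12rb2, Il12rb1, Il10ra and Il6st higher and Il6ra lower, where 9.69% of tested genes were called higher and 7.59% lower. In bulk libraries, a smaller share of cells that express a gene and less RNA of it per cell cannot be told apart.

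**Figure D2:**
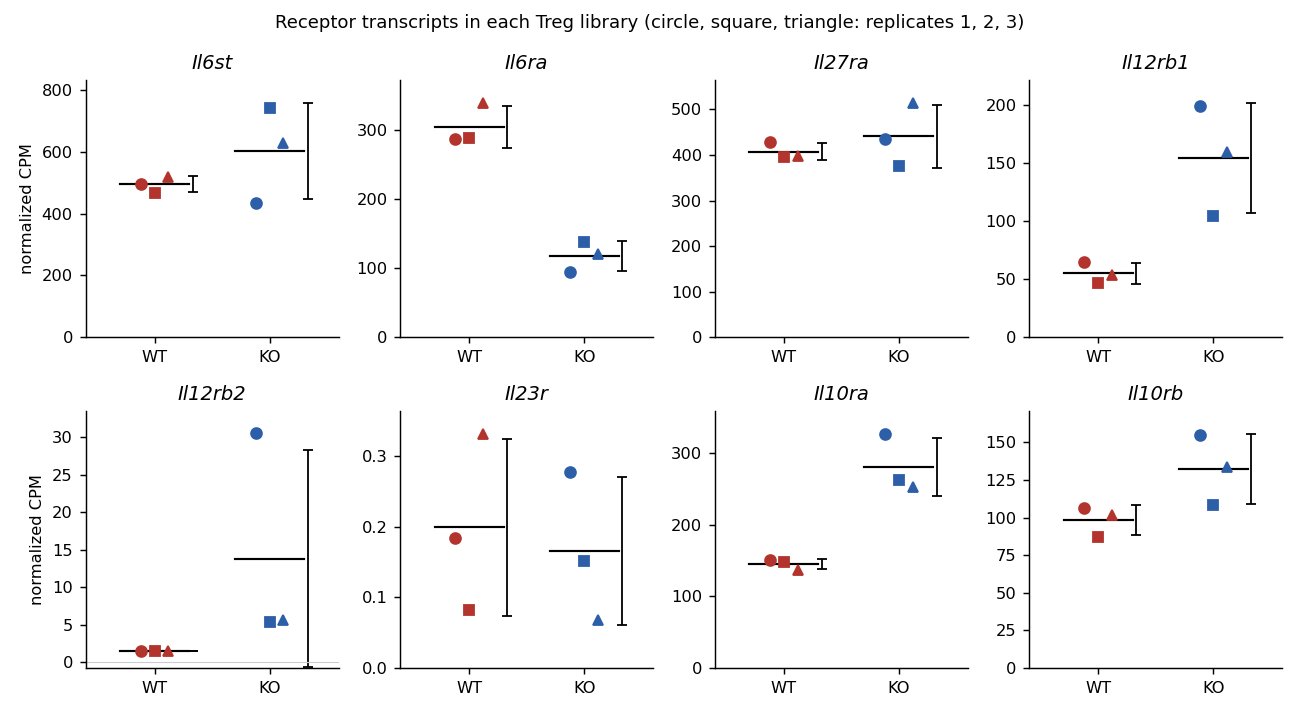
Normalized CPM of each receptor gene in the 3 WT (red) and 3 KO (blue) Treg libraries, on axes that start at or below 0. Lines are group means and bars are SD (n = 3). Il6ra is lower in all KO libraries, Il12rb1 and Il10ra are higher in all of them, and Il12rb2 is led by KO replicate 1 at 30.5 CPM.

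Il6ra encodes the α chain that captures IL-6 and presents it to gp130. It lies on chromosome 3 (GRCm38, 89864059 to 89913196). The WT libraries held 287, 288 and 339 normalized CPM and the KO libraries 94.1, 138 and 120 CPM. The highest KO library thus stood below the lowest WT library. Mean CPM was 305 ± 29.9 (SD, n = 3) for WT Treg cells and 117 ± 21.9 (SD, n = 3) for KO Treg cells, and the log2 fold change was -1.38 (SE 0.15, QLF FDR = 0.00219), which made the transcript 2.60-fold more abundant in WT. Leaving out KO replicate 1, the library with the lowest value, the log2 fold change was -1.26 (SE 0.12, QLF FDR = 0.000652). Its 3′ UTR holds the 3p match printed above.

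Il6st encodes gp130, the signalling chain for IL-6, IL-27, LIF, oncostatin M and related cytokines. The gene lies on chromosome 13 (112464070 to 112510086). The WT libraries held 498, 469 and 520 CPM and the KO libraries 434, 742 and 630 CPM. KO replicates 2 and 3 lay above every WT library and KO replicate 1 lay below them all. With all 6 libraries the log2 fold change was 0.28 (95% CI -0.15 to 0.72, QLF FDR = 0.325), smaller than the spread between the KO libraries. Il6st was called higher when KO replicate 1 was left out (log2 fold change 0.45, SE 0.11, QLF FDR = 0.0301). The part that the other transcripts of KO replicate 1 had in this difference was not tested.

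Il27ra encodes the chain that pairs with gp130 to sense IL-27. The gene lies on chromosome 8 (84030294 to 84042589). The WT libraries held 429, 396 and 397 CPM and the KO libraries 435, 376 and 514 CPM. The KO libraries spread on either side of the WT libraries, and the log2 fold change was 0.12 (95% CI -0.18 to 0.41, QLF FDR = 0.558). It was 0.11 (QLF FDR = 0.636) without KO replicate 1 and turned to -0.02 without KO replicate 3. An exon of Il27ra overlaps Palm3 on the opposite strand, and counting disregarded strand. Palm3 had 36.1 to 49.2 CPM in WT and 72.1 to 90.5 CPM in KO.

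Il12rb1 encodes the chain common to the IL-12 and IL-23 receptors. It lies on chromosome 8 (70808449 to 70821424), 13.2 Mb from Il27ra. Its values were 64.9, 46.9 and 53.5 CPM in the WT libraries and 199, 104 and 159 CPM in the KO libraries. All KO libraries were above all WT libraries, and KO replicate 1 was the highest. Mean CPM was 55.1 ± 9.10 (SD, n = 3) for WT and 154 ± 47.4 (SD, n = 3) for KO, a 2.80-fold rise with a log2 fold change of 1.49 (SE 0.24, QLF FDR = 0.00741). With KO replicate 1 left out it was 1.24 (SE 0.19, QLF FDR = 0.00438). Il12rb1 held no miR-142 match in the 3′ UTR searched.

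Il12rb2 encodes the chain specific to the IL-12 receptor, which carries the STAT4 docking function and is known to be induced during T helper 1 differentiation. The gene lies on chromosome 6 (67291318 to 67376188). It was near the limit of the filter in WT, with 25, 36 and 28 counts or 1.54, 1.48 and 1.55 CPM. The KO libraries held 550, 71 and 82 counts, or 30.5, 5.38 and 5.61 CPM. The groups did not overlap, and KO replicate 1 was 5.44-fold above the higher of the other KO libraries. The log2 fold change was 3.19 (SE 0.73, QLF FDR = 0.0249). The 2 other KO libraries alone gave 1.83 (SE 0.24, QLF FDR = 0.00214), and the mean of KO replicates 2 and 3 was 3.61-fold the WT mean. The call was lost when any WT library was left out, with log2 fold changes of 3.16 to 3.20 and QLF FDRs of 0.0881 to 0.102. The marker sums of monocytes and macrophages, neutrophils, dendritic cells and B cells were also highest in KO replicate 1, and their part in the Il12rb2 value was not tested. An exon of Il12rb2 overlaps Serbp1 on the opposite strand, which had 418 to 463 CPM in WT and 427 to 449 CPM in KO.

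Il23r encodes the chain specific to the IL-23 receptor, a hallmark of IL-17-producing T cells. It is the next protein-coding gene to Il12rb2 on chromosome 6 (67422932 to 67491855), 46.7 kb away with 0 protein-coding genes between them. It had 3, 2 and 6 counts in the WT libraries and 5, 2 and 1 in the KO libraries, near the floor of 3 counts, and it did not pass the filter. When no filter was applied, its log2 fold change was -0.21 (95% CI -2.05 to 1.63, QLF FDR = 0.887). A change of several-fold in either direction lay within that interval.

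Il10ra encodes the ligand-binding chain of the IL-10 receptor. The gene lies on chromosome 9 (45253837 to 45269149). Its values were 151, 148 and 137 CPM in the WT libraries and 326, 262 and 253 CPM in the KO libraries. The WT libraries lay close together and well below the lowest KO library. Mean CPM was 145 ± 7.24 (SD, n = 3) for WT and 280.3 ± 40.1 (SD, n = 3) for KO, a 1.93-fold rise with a log2 fold change of 0.95 (SE 0.12, QLF FDR = 0.00319). It was 0.81 when KO replicate 1 was left out (SE 0.09, QLF FDR = 0.00146). Il10ra had the smallest p of the receptor genes that rose.

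Il10rb encodes the accessory chain that IL-10 shares with IL-22 and the type III interferons. It lies on chromosome 16 (91406164 to 91425834). The WT libraries held 107, 87.0 and 102 CPM and the KO libraries 155, 109 and 133 CPM. All KO libraries lay above all WT libraries, the lowest of them by a small margin. The log2 fold change of 0.43 (95% CI 0.09 to 0.77, QLF FDR = 0.0796) did not pass the threshold, and without KO replicate 1 it was 0.28 (QLF FDR = 0.161). DESeq2 in place of edgeR called it, with an adjusted p of 0.0413.

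**Figure D3:**
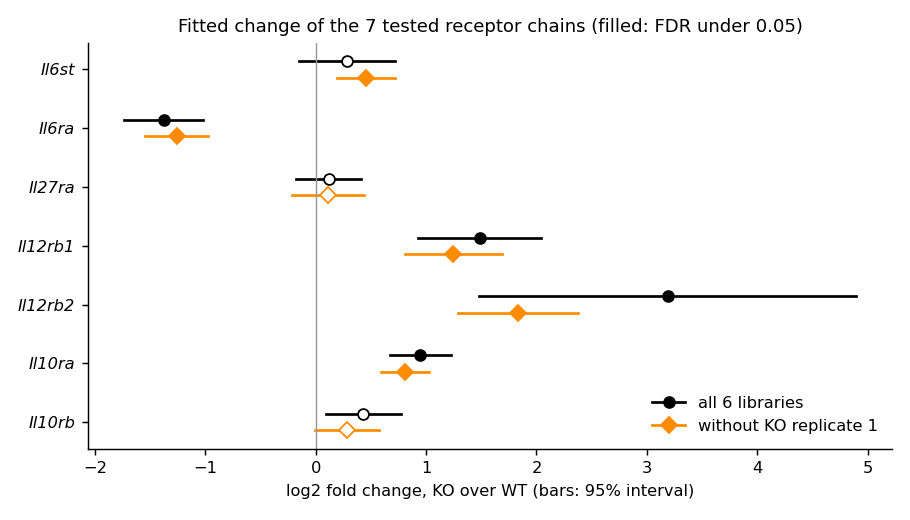
Fitted log2 fold change (KO over WT) of the 7 tested receptor genes with all 6 libraries (black) and without KO replicate 1 (orange); bars are 95% intervals and filled symbols have an FDR under 0.05. The Il12rb2 estimate moves from 3.19 to 1.83 and its interval narrows, and Il6st passes the threshold only without that library.

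The balance between the chains of a receptor was read as the ratio of their counts within each library, which does not depend on how libraries are scaled to each other. Levels of different genes are not compared by this ratio, since the transcripts differ in length. With 3 libraries against 3, the smallest p of an exact two-sided permutation test is 0.1, and 4 ratios were compared. The ratio of Il6ra to Il6st counts was 0.576, 0.615 and 0.653 in the WT libraries and 0.217, 0.185 and 0.190 in the KO libraries. The mean log2 ratio thus went from -0.70 ± 0.09 in WT to -2.34 ± 0.12 in KO (SD, n = 3 per group, exact permutation p = 0.1, 0.133 adjusted over the 4 ratios). KO replicate 1 lay close to the other KO libraries in this ratio.

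The ratio of Il10ra to Il10rb counts was 1.42, 1.70 and 1.35 in WT and 2.10, 2.41 and 1.89 in KO. The ligand-binding chain therefore gained on the accessory chain in every KO library (exact permutation p = 0.1, adjusted 0.133). The ratio of Il12rb2 to Il12rb1 counts was 0.0242, 0.0319 and 0.0295 in WT and 0.154, 0.0518 and 0.0355 in KO (exact permutation p = 0.1, adjusted 0.133). KO replicate 3 lay only slightly above the highest WT library in this ratio, and the difference in mean log2 ratio went from 1.21 to 0.60 without KO replicate 1. That of Il6ra to Il6st was -1.71 and that of Il10ra to Il10rb 0.53 without it. The ratio of Il27ra to Il6st overlapped between the groups, with 0.764 to 0.863 in WT and 0.506 to 1.001 in KO (exact permutation p = 0.8, adjusted 0.8). Its difference in mean log2 ratio was -0.14, and -0.36 without KO replicate 1.

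**Figure D4:**
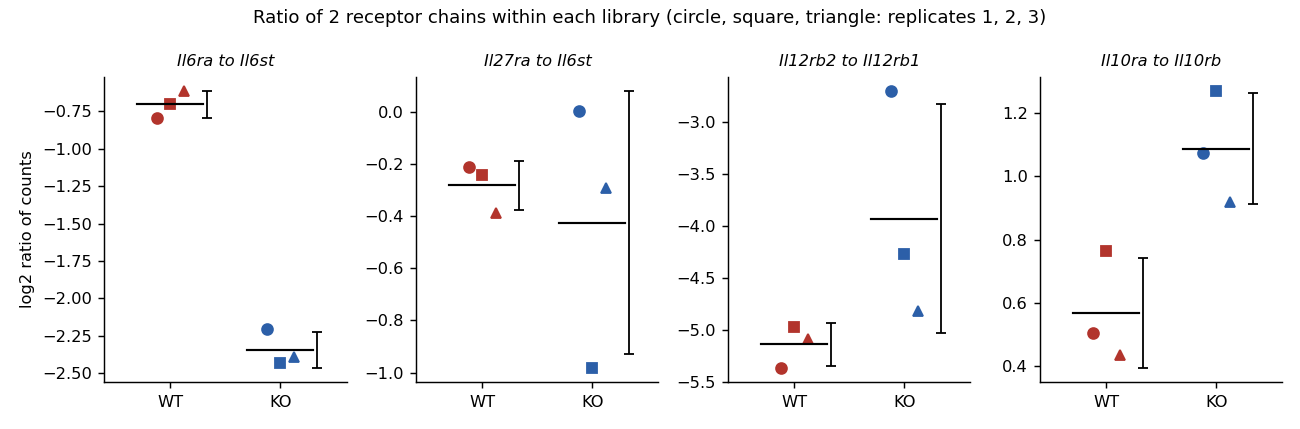
Log2 ratio of the counts of 2 receptor chains within each WT (red) and KO (blue) library; lines are means and bars SD (n = 3). The Il6ra to Il6st ratio lies between -0.79 and -0.62 in WT and between -2.43 and -2.21 in KO, and the Il27ra to Il6st ratio overlaps.

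To compare receptor genes with each other, levels were divided by the length of their annotated exons and given as CPM per kb. The length joins all GENCODE vM21 exons of a gene. The exons used for counting may differ from these, and the effect on the order was not tested. In WT Treg cells Il27ra was highest at 117 ± 5.40 CPM per kb (SD, n = 3), a level above that of 98.0% of tested genes with a single annotated length. Il6st (44.6 ± 2.32), Il10ra (41.6 ± 2.07) and Il6ra (35.3 ± 3.46) followed, and neighbours in this order overlapped between libraries. Il10rb (25.8 ± 2.67), Il12rb1 (13.4 ± 2.22), Il12rb2 (0.401 ± 0.0105) and Il23r (0.0802 ± 0.0505) came next, each apart from the one above it. In KO the order was Il27ra (126 ± 19.9), Il10ra (80.1 ± 11.5), Il6st (54.3 ± 14.1), Il12rb1 (37.5 ± 11.5), Il10rb (34.8 ± 6.10), Il6ra (13.6 ± 2.53), Il12rb2 (3.65 ± 3.81) and Il23r (0.0666 ± 0.0423). Among these KO levels Il6st overlapped with Il12rb1, and Il12rb1 with Il10rb, while the other neighbours were apart. The Il12rb2 level rested on KO replicate 1, with 8.05, 1.42 and 1.48 CPM per kb in the KO libraries and a mean of 1.45 without KO replicate 1. The order of the KO means was the same without that library. Il6ra thus moved from the fourth to the sixth place and Il12rb1 from the sixth to the fourth.

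The tested genes whose values over the 6 libraries were most like those of Il10ra were Mapkapk2, Clta and Rab1. Their mean-centred log2 CPM differed from that of Il10ra by a root mean square of 0.0516, 0.0565 and 0.0595. For Il6ra they were Glt28d2, Trio and Eya2, at 0.0608, 0.122 and 0.144. Glt28d2 had only 2.83 to 3.60 CPM in WT and 0.722 to 1.06 CPM in KO. At that level the 0.5 CPM added before the log2 narrows its change in this comparison. Its fitted log2 fold change was -1.79, against -1.38 for Il6ra. Trio had 97.4 to 113 CPM in WT and 39.4 to 52.2 CPM in KO, with the lowest value in KO replicate 1 as for Il6ra. Without KO replicate 1 the closest genes to Il10ra were Rraga, Cyb5b and Stard8, with Mapkapk2 at place 11, Clta at 12 and Rab1 at 20, so the names for Il10ra depended on that library. Glt28d2 was still the closest gene to Il6ra, followed by Dnase1l3 and Tacc2. These rankings come from a comparison that holds the KO and WT difference within it, and they are a description.

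Among the 15 listed ligands of these receptors and of other gp130 cytokines, 5 were tested, and 2 rose in KO Treg cells. The counts of this list and the next ones stand beside 11.6% of all tested genes called higher and 7.27% called lower. Lif, a gp130 cytokine known to favour Treg over T helper 17 differentiation, had 14.2, 13.0 and 28.2 CPM in WT and 53.3, 30.7 and 40.4 CPM in KO (log2 fold change 1.17, SE 0.33, QLF FDR = 0.049). Osm (oncostatin M) had 40.5, 34.8 and 31.6 CPM in WT and 71.5, 50.4 and 72.4 CPM in KO (log2 fold change 0.86, SE 0.17, QLF FDR = 0.0141). In both genes the lowest KO library exceeded the highest WT library, and of the 5 only Osm was called when KO replicate 1 was left out (0.77, QLF FDR = 0.0218). The count of called ligands was 1 under RLE scaling, library size alone, no filter, another filter and robust estimation, 1 without WT replicate 1, WT replicate 3 or KO replicate 3, and 0 without WT replicate 2. Il10 itself spread widely, from 5.11 to 34.4 CPM in WT and from 13.2 to 48.3 CPM in KO (log2 fold change 0.53, SE 0.70, QLF FDR = 0.632). Ebi3, the subunit shared by IL-27 and IL-35, had 12.1 to 15.5 CPM in WT and 8.48 to 14.9 CPM in KO (QLF FDR = 0.59). Clcf1 had a QLF FDR of 0.674. The subunits Il12a, Il12b and Il27, products of antigen-presenting cells, were at 1.33, 2.72 and 2.61 CPM in KO replicate 1 and at 0.0757 CPM or less in every other library. Il6 and Il23a stayed at 0.444 CPM or less in every library. Of the 10 listed chains that pair with gp130 or IL-10Rβ, 2 were tested, Il11ra1 and Il20rb, and neither passed the threshold. Lifr and Osmr, the signalling partners for LIF and oncostatin M, had at most 0.111 CPM in WT, and 7.72 and 1.22 CPM in KO replicate 1.

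All 9 kinases and STATs listed were tested, of which 2 rose and 1 fell, and their median log2 fold change was -0.11, beside 0.0164 over all tested genes. Stat3, the main STAT of gp130 and the IL-10 receptor, had 394, 412 and 382 CPM in WT and 523, 521 and 484 CPM in KO (log2 fold change 0.36, SE 0.08, QLF FDR = 0.0252). Stat4, the STAT of the IL-12 receptor, went the other way, with 204, 177 and 187 CPM in WT and 111, 117 and 129 CPM in KO (log2 fold change -0.67, SE 0.10, QLF FDR = 0.00508). The IL-12 receptor chains thus rose while Stat4 fell, and in each of these genes the groups did not overlap. Leaving out KO replicate 1, Stat4 (-0.63) was called as before, Stat3 was no longer called and Stat5a was called higher (0.43, QLF FDR = 0.0403). Jak1, Jak2 and Tyk2, the kinases bound to these chains, did not pass the threshold, with log2 fold changes between -0.22 and 0.17.

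Of the 13 tested inhibitors of JAK-STAT signalling, 5 rose and 0 fell in KO, with a median log2 fold change of 0.08. Socs3, which binds gp130 and blocks its signalling, had 194, 204 and 208 CPM in WT and 414, 405 and 456 CPM in KO (log2 fold change 1.07, SE 0.09, QLF FDR = 0.00088). Socs2, which restrains growth hormone signalling, had the largest change of the list (log2 fold change 2.53, SE 0.15, QLF FDR = 0.000393). Cish, an inhibitor of STAT5 signalling, had a log2 fold change of 1.001 (SE 0.13, QLF FDR = 0.00394), Ptpn1, a phosphatase that acts on JAK2 and TYK2, one of 0.69 (SE 0.08, QLF FDR = 0.00304), and Socs1, an inhibitor of interferon signalling, one of 0.55 (SE 0.16, QLF FDR = 0.0486). Socs2, Socs3, Cish and Ptpn1 were called higher and Socs1 was not when KO replicate 1 was left out. Adam10 and Adam17, sheddases that release the IL-6 receptor from the cell surface, were not called, with log2 fold changes of -0.05 and 0.36.

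Genes known to respond to these cytokines changed in part, where 11.6% of all tested genes were called higher and 7.27% lower. Among 14 tested STAT3 response genes, 3 rose and 0 fell (median log2 fold change 0.24). They were Socs3, Bcl3, a nuclear IκB protein (0.89, SE 0.15, QLF FDR = 0.00877), and Tnfrsf1a, the TNF receptor 1 gene (1.003, SE 0.20, QLF FDR = 0.0148). The same 3 genes were called without KO replicate 1, and Il21, at 4.92 CPM or less in every library, was then called lower (-3.08, QLF FDR = 0.00565). Among 11 tested IL-12 and STAT4 response genes, 5 rose and 0 fell (median 0.54). Among them were the granzyme gene Gzmb (log2 fold change 3.42), Ifngr1 (0.92), Furin, a proprotein convertase (0.87), and Ifngr2 (0.54). The paper's reporter assay also gave Ifngr2 as a direct miR-142-3p target. Its longest 3′ UTR held a match to the second 3p seed, while those of Gzmb, Ifngr1 and Furin held no match. Gzmb had 120 CPM in KO replicate 1, 28.3 and 46.2 CPM in the other KO libraries and 4.87 to 6.97 CPM in WT. Of the genes that define T helper 1 cells in this list, Ifng had 5.85 to 24.6 CPM in WT and 4.38 to 15.0 CPM in KO (QLF FDR = 0.402), and Tbx21 had 15.0 to 16.2 CPM in WT and 17.1 to 51.01 CPM in KO (QLF FDR = 0.112). Leaving out KO replicate 1, Gzmb (2.59), Furin (0.88) and Ifngr1 (0.67) were called higher and Ifngr2 was not.

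Among 12 tested IL-27 response genes, 5 rose and 0 fell in KO (median log2 fold change 0.78). They were Havcr2 (TIM-3, 3.27), Entpd1 (CD39, 1.63), Prdm1 (Blimp-1, 1.13), Ahr (aryl hydrocarbon receptor, 1.07) and Cd274 (PD-L1, 0.81). Ahr had 45.1 to 53.3 CPM in WT and 101 to 109 CPM in KO, with the KO libraries close together. Havcr2 was led by KO replicate 1 at 34.6 CPM, against 7.19 and 11.2 CPM in the other KO libraries and 1.44 to 2.22 CPM in WT. Leaving out KO replicate 1, the same 5 genes were called higher, Havcr2 at 2.31 and Entpd1 at 1.25, and Pdcd1 (PD-1) was called lower (-1.15, QLF FDR = 0.0325). Over these lists and those of resting and effector Treg genes together, 26 of 83 tested genes rose and 1 fell. Among all tested genes the shares were 11.6% higher and 7.27% lower. Leaving out WT replicate 1, 2 or 3 brought these 27 calls to 14, 12 and 16. The calls of higher expression went to 0 among kinases and STATs without any 1 WT library or KO replicate 3, to 2, 2 and 3 among both the IL-12 and the IL-27 response genes without WT replicates 1, 2 and 3, and to 1 among STAT3 response genes without WT replicate 2. The part that the transcripts of other cell types in KO replicate 1 had in these counts was not tested beyond the values given without that library.

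**Figure D5:**
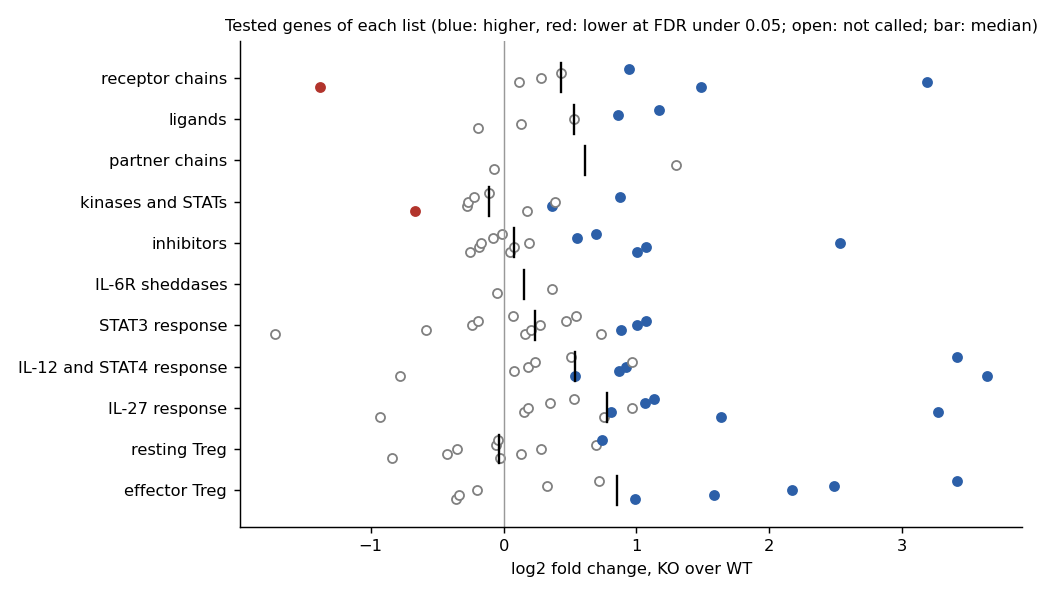
Log2 fold change (KO over WT) of each tested gene in the receptor list, the pathway lists and the lists of resting and effector Treg genes; filled blue points were called higher and filled red points lower at an FDR under 0.05, open points were not called, and bars are list medians. Il6ra and Stat4 are the genes called lower.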

How the data were processed

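The authors aligned 51-base single-end reads to mm10 with HISAT, counted reads per gene with featureCounts in unstranded mode, and deposited the counts as they were; tool versions are not given in the sources used here. The filter kept genes above 1 CPM in 3 or more libraries, and KO was compared with WT with edgeR 4.0.16 in R 4.3.3 (TMM scaling after the filter, quasi-likelihood F test without robust estimation, Benjamini-Hochberg adjustment, threshold 0.05). CPM values use TMM-scaled library sizes. The SE is the log2 fold change divided by the square root of F. Ratios used counts plus 0.5, and likeness used log2 of CPM plus 0.5. Genes were matched by symbol to GENCODE vM21; 3′ UTRs are those after the stop codon of protein-coding transcripts, and miRNA sequences are from RefSeq. The steps were tested on simulated counts. The receptor genes, lists and rules were chosen with earlier results of these data known. Named genes were all receptor genes, every called gene of a list with 6 or fewer calls, and the 3 genes most like the receptor gene with the smallest p in each direction; genes named without a call were chosen after their values were seen. Some called genes of the lists are counted but not reported here by name. Alternatives were RLE or no scaling, DESeq2 1.42.0, 3 edgeR tests together, other filters, robust estimation, an FDR of 0.01, a block on replicate number and leaving out each library. Levels per kb and likeness without KO replicate 1 were added after seeing the data.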

Additional observations from a re-analysis of the deposited data

How the results depend on the processing

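Il6ra, Il12rb1 and Il10ra kept their direction and their calls under all 9 alternatives and in all 6 fits that left out a library. Il12rb2 was not called at an FDR under 0.01 (log2 fold change 3.19), and it ranged from 1.83 to 3.58 with a library left out. Il6st ranged from 0.11 to 0.45 and passed the threshold without KO replicate 1. Il10rb passed it with DESeq2 (0.42), with the replicate block (0.42) and without KO replicate 2, in a range of 0.28 to 0.56. Il27ra ranged from -0.02 to 0.23 and reversed without KO replicate 3 (-0.0234). The log2 ratio of Il27ra to Il6st in KO minus WT ranged from -0.36 to 0.14 and reversed without KO replicate 2. Genes called numbered 2197, 686 at an FDR under 0.01 and 691 to 2340 with a library left out; those of the pathway, resting and effector Treg lists together numbered 27, 13 at an FDR under 0.01 and 12 to 36 with a library left out. The cause of these differences was not tested, other than that fewer libraries were fitted. What the replicate numbers mark is not given. Correlations of deviations across genes were 0.0804, -0.0056 and -0.195 between libraries of the same number 1, 2 and 3. They were -0.183 to 0.207 between libraries of different numbers. With 3 libraries per group, these values cannot tell whether libraries of the same number were paired. Reads shared between genes on opposite strands cannot be told apart in these counts, and Il23r was limited by its depth.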

Other observations

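Effector and resting Treg genes were read beside the receptors, since Treg subsets differ in cytokine receptor expression. Of all tested genes, 11.6% were called higher and 7.27% lower. Among 10 tested effector Treg genes, 5 rose and 0 fell in KO (median log2 fold change 0.85): Gzmb, Klrg1, an inhibitory receptor of terminally differentiated cells (2.49, SE 0.22, QLF FDR = 0.0011), Itgae, the integrin chain CD103 (2.18, SE 0.14, QLF FDR = 0.000508), Il1rl1, the IL-33 receptor ST2 (1.58, SE 0.39, QLF FDR = 0.0322), and Tnfrsf9, the costimulatory receptor 4-1BB (0.99, SE 0.12, QLF FDR = 0.00264). Itgae had 102 to 133 CPM in WT and 479 to 597 CPM in KO, and Klrg1 had 40.01 to 59.1 CPM in WT and 197 to 321 CPM in KO. Leaving out KO replicate 1, the same 5 genes were called higher and Cd44 was called lower (-0.72, QLF FDR = 0.0031).

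Among 10 tested resting Treg and naive T cell genes, 1 rose and 0 fell (median log2 fold change -0.04). Satb1, a chromatin organizer needed in T cell development, had 350.01 to 468 CPM in WT and 594 to 870.3 CPM in KO (log2 fold change 0.74, SE 0.18, QLF FDR = 0.0303). Tcf7, a factor of naive and central T cells, had 983 to 1034 CPM in WT and 377, 832 and 482 CPM in KO replicates 1, 2 and 3 (log2 fold change -0.84, SE 0.27, QLF FDR = 0.0686). Il6ra and Tcf7 were both lowest in KO replicate 1 and next lowest in KO replicate 3. With KO replicate 1 left out, Satb1 and Il7r (0.88, QLF FDR = 0.0251) were among 3 genes called higher and 0 were called lower. Without KO replicate 2 the list went the other way, with 1 called higher and 4 lower, and 0 were called when any WT library was left out.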
